A study of Mus musculus with 6 samples.

Results

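The immunity-related GTPases (IRG proteins) are a family of interferon-inducible GTPases, and 7 of their genes were followed here among the 18227 genes in a table of mouse cornea RNA. The 7 are Irgm1, Irgm2, Igtp, Iigp1, Tgtp1, Tgtp2 and Ifi47, taken by gene symbol. They were chosen by their lower read counts in Muc13-deficient corneas in these same libraries, so all differences between genotypes in these 7 genes are given as a description. Counts of calls among them, from fits over all genes, are printed only beside the share of all genes called, and nothing rests on them. The study compared whole corneas of Muc13-/- mice (knockout, KO 1 to 3) with whole corneas of wild-type mice (WT 1 to 3). All mice were C57BL/6 males aged 6 weeks, kept specific-pathogen-free, and neither group received a treatment that the labels name. Muc13 is a transmembrane mucin of epithelial surfaces; the sources used here do not say which part of the gene was deleted, in which cells, or whether a sample pooled corneas of several mice. All 7 genes passed the filter on low counts that left 14983 genes for testing.

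IRG proteins act inside cells against microbes that live in vacuoles, such as Toxoplasma gondii and Chlamydia in the mouse. Interferon gamma, which signals through the receptor kinases Jak1 and Jak2, is their best-known inducer, and type I interferon induces them too. The effector proteins Iigp1 (also called Irga6), Tgtp1 and Tgtp2 (Irgb6) and Ifi47 (Irgd) collect on the vacuole membrane, which then breaks down. The regulatory proteins Irgm1, Irgm2 and Igtp (Irgm3) sit on the membranes of the cell's own organelles and hold the effectors in the inactive, GDP-bound state there.

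The division into regulators and effectors is written in the nucleotide-binding loop of the protein. The stretches below show that loop in the coding sequence, taken from GENCODE M21 transcripts on GRCm38 and written in the direction of transcription, with the codon that separates the classes in capitals. They lie at chr11:48866761-48866784 (Irgm1, minus strand), chr11:58206275-58206298 (Igtp, plus), chr11:58219695-58219718 (Irgm2, plus), chr11:48987667-48987690 (Tgtp1, minus), chr11:49059534-49059557 (Tgtp2, minus) and chr11:49095648-49095671 (Ifi47, plus).
Irgm1: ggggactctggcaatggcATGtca
Igtp: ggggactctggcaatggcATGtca
Irgm2: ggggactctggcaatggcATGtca
Tgtp1: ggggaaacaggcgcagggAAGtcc
Tgtp2: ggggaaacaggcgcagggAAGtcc
Ifi47: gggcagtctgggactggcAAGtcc
The 3 regulators share all 24 bases and carry a methionine codon (ATG), whereas Tgtp1, Tgtp2 and Ifi47 carry the lysine codon (AAG) of classical GTPases. Iigp1 also has a lysine codon at this place. Over the whole coding sequence Tgtp1 and Tgtp2 were identical at 99.7% of positions, with 4 mismatches in 1245 bases and no gap. Among the other pairs identity ran from 50.7% (Iigp1 and Igtp) to 67.9% (Irgm2 and Igtp), so Tgtp1 and Tgtp2 are the pair whose reads are hardest to assign.

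The promoters show what the members share outside the coding sequence. RefSeq windows on GRCm38.p6, from 250 bases before to 50 bases after each transcript start, were available for 6 of the 7 genes. They were searched for the core of the interferon-stimulated response element (ISRE, letters GAAANNGAAA), which binds interferon regulatory factors, and for the gamma-activated site (GAS, letters TTCNNNGAA), a response element for interferon gamma. Both strands were searched, and no GAS match overlaps an ISRE core in the stretches shown. In the 70-base stretches below, both motifs are in capitals. They lie at chr11:48871421-48871490 (Irgm1, minus strand), chr11:58199482-58199551 (Igtp, plus), chr11:58214873-58214942 (Irgm2, plus), chr11:48992294-48992363 (Tgtp1, minus) and chr11:49064253-49064322 (Tgtp2, minus).
Irgm1: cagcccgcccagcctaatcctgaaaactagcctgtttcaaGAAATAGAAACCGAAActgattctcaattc
Igtp: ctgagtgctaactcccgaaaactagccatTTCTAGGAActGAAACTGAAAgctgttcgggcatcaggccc
Irgm2: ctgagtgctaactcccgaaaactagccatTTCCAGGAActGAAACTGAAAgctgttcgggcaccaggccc
Tgtp1: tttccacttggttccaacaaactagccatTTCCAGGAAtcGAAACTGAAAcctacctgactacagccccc
Tgtp2: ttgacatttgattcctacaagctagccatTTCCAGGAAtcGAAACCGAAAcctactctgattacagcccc
Igtp, Irgm2, Tgtp1 and Tgtp2 each hold a GAS followed, after 2 bases, by an ISRE core. The Irgm1 window has 2 overlapping ISRE cores, from base -30 to base -15 relative to the start, and no match to the GAS letters. Of all 32851 promoter windows in the table, 3.44% hold the ISRE core, 8.3% the GAS and 0.454% both.

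The window of Ifi47 has neither motif, which says only that these letters are not in this stretch. It is printed whole because Ifi47 also departs from the other members in its values, given further on. A link between this window and those values was not tested. The window lies at chr11:49076337-49076636 on the plus strand.
Ifi47: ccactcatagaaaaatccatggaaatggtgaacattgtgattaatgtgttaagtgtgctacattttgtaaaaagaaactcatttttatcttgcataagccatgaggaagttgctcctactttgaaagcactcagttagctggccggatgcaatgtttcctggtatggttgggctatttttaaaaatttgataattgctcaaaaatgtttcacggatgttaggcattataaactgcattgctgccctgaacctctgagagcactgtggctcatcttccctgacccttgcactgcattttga

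**Figure D1:**
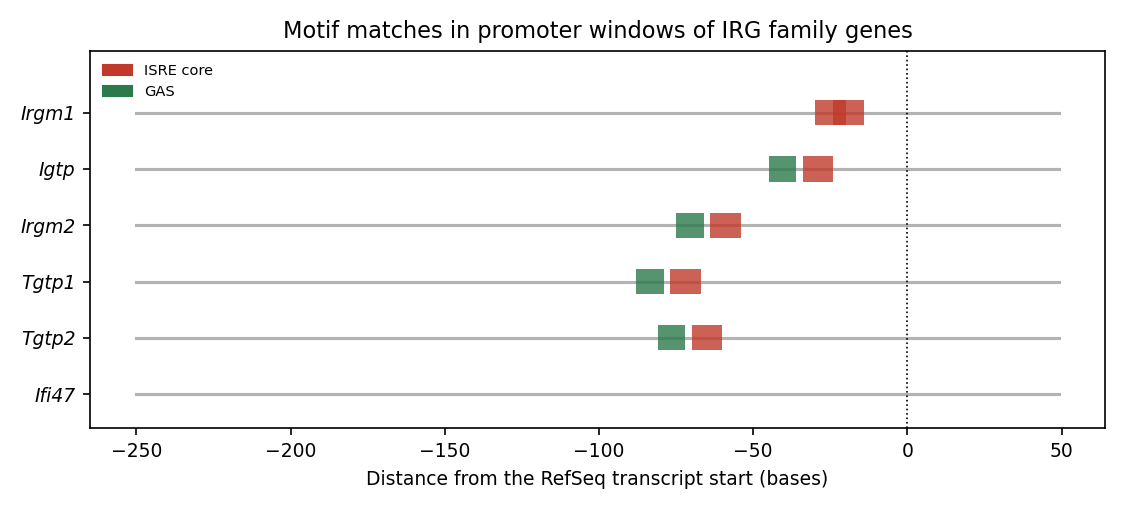
Positions of motif matches in the promoter windows of 6 IRG family genes, in bases from the RefSeq transcript start (0, dotted line); red bars are ISRE cores and green bars are GAS matches, and the grey lines are the windows searched. The ISRE cores lie between base -77 and base -15 in 5 genes, with a GAS 2 bases upstream in 4 of them, and the Ifi47 window is empty.

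The libraries held 1.41e+07 to 1.55e+07 expected counts (estimated reads per gene) each. Counts of Muc13 itself were 9, 4 and 2 in the knockout and 18, 21 and 9 in the wild type (libraries 1 to 3), so it was near the detection limit in both groups and the groups overlapped. The 6 libraries differed in how much retina, lens, muscle and pigment cell RNA they contained, and the sums of those markers are set beside the family's values further on. The corneal keratin Krt12 was present in all of them, at 12672, 11626 and 1346 CPM (TMM-scaled counts, relative to library size) in KO 1 to 3 and at 42075, 31173 and 10000 CPM in WT 1 to 3. In whole tissue, fewer cells that express a gene and less of its RNA per cell cannot be told apart.

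Summed over the family, IRG RNA was 3.85 times as high in wild-type as in knockout corneas. The 7 genes together reached 74.7, 87.2 and 122 CPM in KO 1 to 3, against 291, 451 and 351 CPM in WT 1 to 3. All knockout sums lay below all wild-type sums. For 6 of the 7 genes, each on its own, the 3 knockout libraries lay below the 3 wild-type libraries, and for Ifi47 the groups met. Among all genes tested, 5.51% had knockout libraries that were all below the wild type; since that contrast chose the members, nothing is read from the comparison of these shares. The log2 fold changes (knockout against wild type) had a median of −1.95 over the members and 0.02 over all genes tested.

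With edgeR's quasi-likelihood test, adjusted over all 14983 genes, 0 of the 7 members passed and 0% of all genes were called lower in the knockout. The smallest adjusted p of any gene was 0.501. At an unadjusted p under 0.05 edgeR had 6 of the 7 members lower, against 3.66% of all genes. DESeq2's Wald test called 6 of the 7 lower at an adjusted p under 0.05, against 0.4% of all genes. In both cases the 1 not called was Ifi47. The 2 tests thus differed on the members, and because the members come from this contrast neither count is evidence for it.

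**Figure D2:**
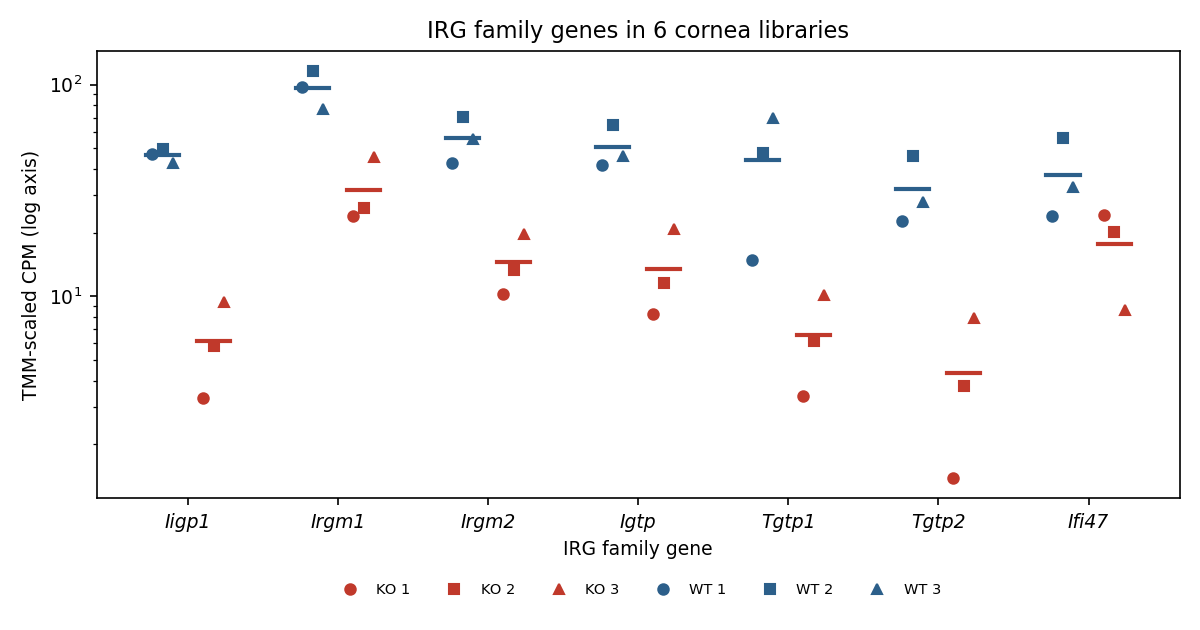
TMM-scaled CPM (log axis) of the 7 IRG family genes in each library; red symbols are knockout and blue symbols wild-type libraries, the symbol shape gives the library number, and bars are group means (n = 3 each). Iigp1 shows the widest gap between groups, and Ifi47 is the gene whose groups meet, with KO 1 at 24.2 and WT 1 at 24 CPM.

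Per unit of transcript length, in TPM (the deposited length-scaled values), Irgm1 was the highest member on average in both genotypes, at 63.5 ± 13.9 TPM in the wild type and 25 ± 9.86 TPM in the knockout (SD, n = 3 each, here and below). It ranked first in every library except KO 1, where Ifi47 did. In the wild type Igtp followed at 36.8 ± 12.5 TPM and Ifi47 at 33.6 ± 16.9 TPM, then Tgtp1 (23.6 ± 18.5), Irgm2 (22.0 ± 8.23), Iigp1 (21.4 ± 4.27) and Tgtp2 (15.9 ± 7.16). The 6 genes after Irgm1 did not differ between neighbours in that order beyond their spread. In the knockout the order was Irgm1, Ifi47 (18.1 ± 9.39), Igtp (11.2 ± 5.51), Irgm2 (6.54 ± 2.22), Tgtp1 (3.67 ± 1.93), Iigp1 (3.35 ± 1.66) and Tgtp2 (2.45 ± 1.90), again with overlapping neighbours.

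Among the regulators, Irgm1 (chromosome 11, 48861968 to 48871683, minus strand), which is needed in mice for resistance to several intracellular bacteria, was at 23.9, 26.3 and 45.4 CPM in KO 1 to 3 and at 97.9, 116 and 76.8 CPM in WT 1 to 3. Its log2 fold change was −1.61 (SE 0.319), and the lowest wild-type library was 1.69 times the highest knockout library. By log2 fold change, Irgm1 had the smallest difference of the 6 members whose groups did not overlap; by the gap between the groups, Tgtp1 did, at 1.45 times. Irgm2 (58199618 to 58222782 on the same chromosome, plus strand), a regulator found on the Golgi, was at 10.3, 13.4 and 19.8 CPM in the knockout and at 42.9, 70.1 and 55.2 CPM in the wild type. Its log2 fold change was −1.95 (SE 0.323). Igtp (58199556 to 58207591, plus strand), the regulator of the endoplasmic reticulum, was at 8.22, 11.6 and 20.8 CPM in the knockout and at 41.9, 64.7 and 45.9 CPM in the wild type, with a log2 fold change of −1.91 (SE 0.405). In each of the 3 regulators KO 3 was the highest knockout library and KO 1 the lowest.

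Irgm2 and Igtp stayed close to a fixed proportion. In TPM, Irgm2 stood at 0.686, 0.628 and 0.519 times Igtp in the knockout and at 0.553, 0.584 and 0.641 times in the wild type, with overlapping groups. The GENCODE model of Irgm2 overlaps most of Igtp on the same strand, so reads near Igtp may be hard to assign, although the deposited counts of both were whole in all 6 libraries. Irgm1 stood at 2.07 to 2.73 times Igtp in the knockout and at 1.55 to 2.18 times in the wild type.

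Iigp1, an effector that loads onto the Toxoplasma vacuole in mouse cells and the member placed on another chromosome (18, 60376027 to 60392634, plus strand), was at 3.32, 5.81 and 9.43 CPM in KO 1 to 3. In WT 1 to 3 it was at 47.1, 49.6 and 42.5 CPM. Its wild-type values were the tightest of the family, with a coefficient of variation of 7.81%, while its knockout values varied by 49.7%. The lowest wild-type library was 4.50 times the highest knockout library, the widest such gap among the members, and the log2 fold change was −2.90 (SE 0.414). Relative to Igtp in TPM, Iigp1 stood at 0.265 to 0.335 in the knockout and at 0.499 to 0.729 in the wild type, so its share of the family was lower in all 3 knockout libraries.

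Tgtp1 and Tgtp2 (chromosome 11, 48985327 to 48994172 and 49057194 to 49064206, both on the minus strand) are neighbouring copies of the effector Irgb6, one of the first IRG proteins to reach the vacuole. Tgtp1 was at 3.38, 6.15 and 10.2 CPM in KO 1 to 3 and at 14.8, 47.5 and 69.8 CPM in WT 1 to 3. Tgtp2 was at 1.39, 3.78 and 7.89 CPM in the knockout and at 22.6, 46.3 and 27.9 CPM in the wild type. Their counts were not whole in any library, the mark of reads divided between near-identical genes, and each is uncertain on its own. The split between them was uneven: Tgtp1 stood at 0.651 times Tgtp2 in TPM in WT 1, at 1.02 times in WT 2 and at 2.51 times in WT 3, and at 2.39, 1.61 and 1.28 times in the knockout.

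Summed, the pair was at 4.77, 9.93 and 18.1 CPM in the knockout and at 37.3, 93.8 and 97.8 CPM in the wild type. The mean of the sum was 6.99 times as high in the wild type, and the groups did not overlap. With both counted as 1 gene the log2 fold change was −2.80, against −2.74 (SE 0.703) for Tgtp1 and −2.88 (SE 0.694) for Tgtp2. In TPM the groups of Tgtp1 met, with 5.84 in KO 3 above 5.42 in WT 1, so that on this scale 5 members were without overlap. The gene model of Gm12185 overlaps Tgtp1 on the same strand, and the olfactory receptor gene Olfr56 spans both copies and Ifi47; Olfr56 had at most 10 counts in a library.

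Ifi47 (chromosome 11, 49076587 to 49096974, plus strand), an effector of which less is known, did not follow the rest of the family. It was at 24.2, 20.2 and 8.63 CPM in KO 1 to 3 and at 24, 56.0 and 32.9 CPM in WT 1 to 3. In CPM KO 1 was thus its highest knockout library and matched WT 1, whereas KO 1 was the lowest library for the other 6 members. In TPM Ifi47 was at 27.7 in KO 1, above the 15.8 of WT 1. Its counts were whole in every library, so no sharing of reads is recorded for it. The log2 fold change was −1.09 (SE 0.497), and it was −0.76 without KO 3 and −0.69 without WT 2. Without KO 1 or without WT 1 the groups of Ifi47 did not overlap either.

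The contrast within the knockout group was large. Ifi47 stood at 1.33 times Irgm1 in TPM in KO 1 and at 0.246 times in KO 3, while in the wild type it lay between 0.319 and 0.64 times. In deviations of log2 CPM from the knockout mean, Ifi47 was at 0.58, 0.32 and −0.90 in KO 1 to 3, and the other 6 members lay between −1.25 and −0.35 in KO 1 and between 0.49 and 1.14 in KO 3. In the wild type Ifi47 moved with most of the others: 6 of the 7 members, Ifi47 among them, were highest in WT 2, and 5 were lowest in WT 1. Tgtp1, highest in WT 3, was the exception to the first, and Iigp1 and Irgm1, lowest in WT 3, to the second.

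**Figure D3:**
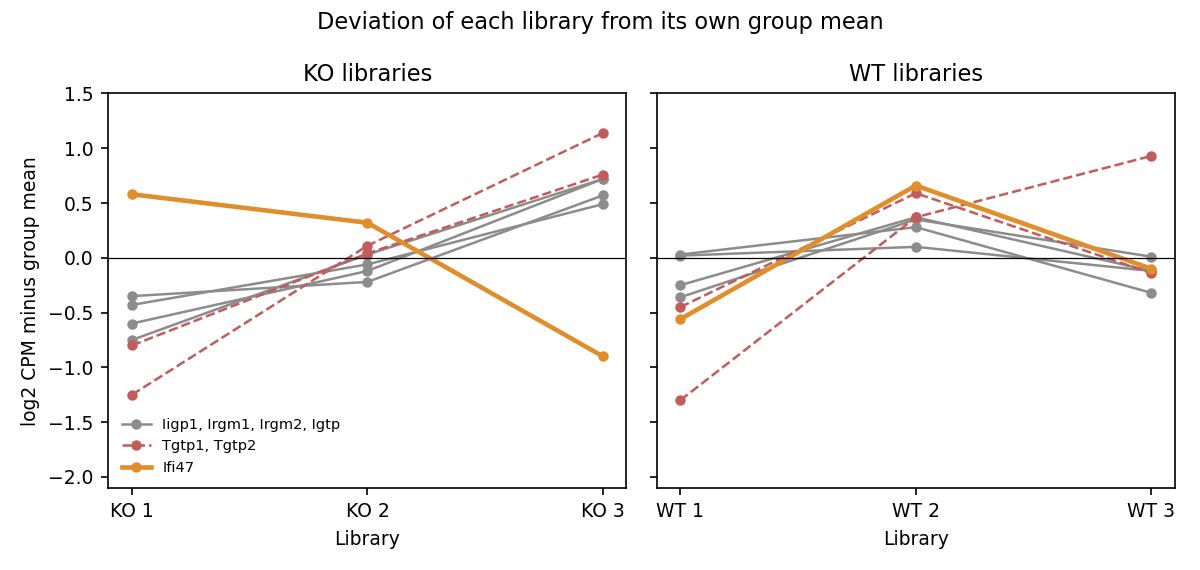
Deviation of log2 CPM from the mean of the same group, by library, for each of the 7 genes (knockout left, wild type right); lines join the values of 1 gene, and the libraries have no order. In the knockout panel Ifi47 (orange) is above the group mean in KO 1 and below it in KO 3, the reverse of the other 6 genes, while in the wild-type panel it is highest in WT 2 like 5 others.

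With Ifi47 counted among the effectors, the balance between regulators and effectors differed more between libraries than between genotypes. The 3 regulators made up 50.7%, 55.3% and 71.9% of summed IRG TPM in KO 1 to 3, against 64.8%, 56.1% and 52.4% in WT 1 to 3. The means, 59.3% ± 11.2 and 57.7% ± 6.35, were closer than the spread within either group. Iigp1 made up 3.04% to 5.96% of the family in the knockout and 8.62% to 12.7% in the wild type, without overlap. Tgtp2 made up 1.34% to 5.23% in the knockout and 6.37% to 8.38% in the wild type, also without overlap. The shares of Tgtp1, 3.21% to 6.68% in the knockout and 4.15% to 16.9% in the wild type, overlapped. Ifi47 made up 41.8%, 31.1% and 10.2% of the family in KO 1 to 3, against 12.1% to 18.4% in the wild type. Irgm2 was the steadiest, at 7.88% to 10.4% in the knockout and 9.59% to 10.5% in the wild type. The balance between the classes was not computed without Ifi47, so the near-equal means do not describe the regulators against Iigp1, Tgtp1 and Tgtp2 alone. By log2 fold change, the effectors Iigp1, Tgtp1 and Tgtp2 were at −2.90, −2.74 and −2.88, and Ifi47 was at −1.09. The regulators Irgm1, Irgm2 and Igtp lay between these, at −1.61, −1.95 and −1.91.

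**Figure D4:**
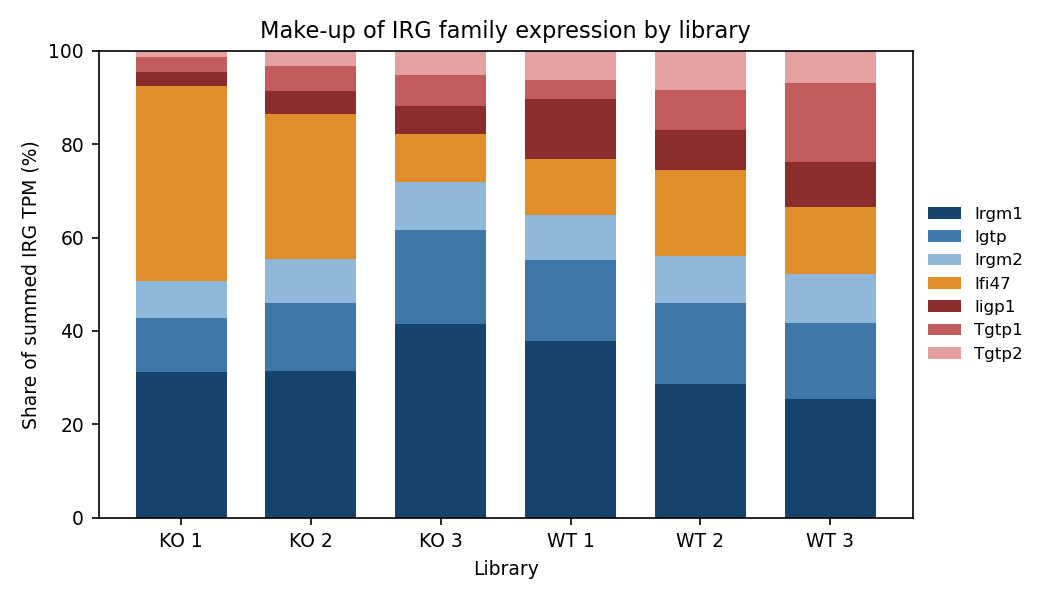
Share of each gene in the summed TPM of the 7 IRG genes (%), by library; blue shades are the regulators, orange is Ifi47 and red shades are the effectors Iigp1, Tgtp1 and Tgtp2. The orange share is 41.8% in KO 1 and 10.2% in KO 3, and the total of the blue shares lies between 50.7% and 71.9%.

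Tissue markers moved with the libraries as follows. The 10 photoreceptor markers came to a sum of 36943, 21114 and 21952 CPM in the knockout and of 71.5, 241 and 23796 CPM in the wild type. WT 3 was therefore like the knockout libraries in retina RNA, and the 9 lens markers, at 33253 CPM in WT 3 and from 75.2 to 66849 CPM in the knockout, overlapped as well. The 9 muscle markers summed to at most 780 CPM in the knockout and to between 266 and 3377 CPM in the wild type. The 6 pigment cell markers summed to 906, 1767 and 6412 CPM in KO 1 to 3. In WT 1 to 3 they summed to 11.2, 419 and 2720 CPM, so the groups overlapped. All 7 IRG genes were higher in WT 3 than in every knockout library, where the photoreceptor sums lay between 21114 and 36943 CPM. Of all genes tested, 12.7% had every knockout library below WT 3, and nothing is read from the members' count beside it. WT 3 exceeded KO 1, KO 2 and KO 3 by 12.8, 7.31 and 4.50 times for Iigp1 and by 3.22, 2.92 and 1.69 times for Irgm1. For Ifi47 the differences were smaller against KO 1 and KO 2, at 1.36, 1.63 and 3.81 times. The median log2 fold change of the members was −1.92 against WT 3 alone, a value with no replicate in the wild type.

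The sum of the 9 corneal epithelium markers was 31011, 30298 and 4933 CPM in the knockout, against 102592, 79726 and 24226 CPM in the wild type. KO 3, with the fewest epithelial counts, had the highest knockout values of 6 members and the lowest of Ifi47. The 10 macrophage markers summed to 173 to 276 CPM in the knockout and to 84.7 to 146 CPM in the wild type. The 6 dendritic cell markers summed to 8.82 to 13.4 and 2.26 to 6.98 CPM. Both sums were on the opposite side from the IRG genes. Taken singly, 1 of the 10 and 3 of the 6 had all knockout libraries above the wild type, and the rest overlapped. Of all 14983 genes tested, 1531 had no overlap in either direction. The 10 T and NK cell markers summed to at most 3.33 CPM in any library, with 9 of them at 0 in at least 1 library. In 2 of these 10 all knockout libraries were above the wild type. The part of tissue make-up in the IRG differences was not tested beyond these values.

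**Figure D5:**
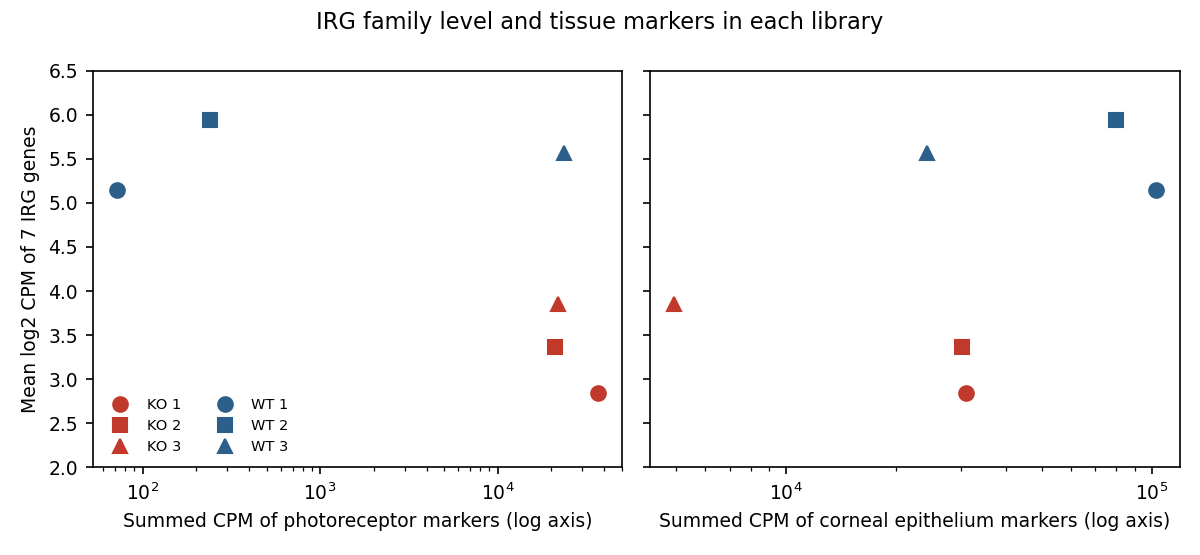
Mean log2 CPM of the 7 IRG genes in each library (vertical axes) against the summed CPM of photoreceptor markers (left) and of corneal epithelium markers (right), both on log axes; red symbols are knockout and blue symbols wild-type libraries. WT 3 lies with the knockout libraries on the photoreceptor axis and with the wild type on the vertical axis, at 5.57 against 2.84 to 3.85 in the knockout.

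Other genes of the IRG family were measured with fewer reads. Of 12 further family symbols, 9 were in the table and 5 passed the filter on low counts. Of the 5, 0 passed edgeR's test at an adjusted p under 0.05. At an unadjusted p under 0.05 edgeR had 3 lower, against 3.66% of all genes. DESeq2 called 1, Gm4841, lower, against 0.4% of all genes. The median log2 fold change of the 5 was −1.23. Gm4841 had 4, 5 and 20 counts in KO 1 to 3, against 148, 56 and 51 counts in WT 1 to 3 (log2 fold change −3.32, SE 0.891). It lies 102755 bases from Iigp1. Gm12185, whose counts are shared, had 3.02, 6.04 and 11 counts in the knockout and 41.5, 20.2 and 18.1 in the wild type (−2.13, SE 0.690). In CPM the knockout libraries were all below the wild type in 3 of the 5, Gm4841, Gm12185 and 9930111J21Rik2, against 5.51% of all genes. In 1, Irgq, they were all above it. These shares were not compared by a test.

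The genes Gm5431 and 9930111J21Rik2, in the same cluster as Tgtp1 and Tgtp2, resembled Ifi47 in the order of their libraries. Gm5431 was at 5.70, 4.05 and 1.29 CPM in KO 1 to 3 and at 4.05, 15.4 and 5.74 CPM in WT 1 to 3 (log2 fold change −1.19, SE 0.762), and 9930111J21Rik2 at 5.97, 4.66 and 3.33 and at 7.55, 15.5 and 9.66 CPM (−1.23, SE 0.415). Both were highest in KO 1 within the knockout and highest in WT 2 within the wild type, and both have shared reads. The groups of Gm5431 overlapped, and those of 9930111J21Rik2 did not in CPM but did in TPM. Irgq, a member of the family that lacks the nucleotide-binding motifs, was at 46.0, 36.8 and 37.4 CPM in the knockout and at 26.0, 32.1 and 36.8 CPM in the wild type (0.34, SE 0.196). It was the 1 relative of the 5 tested with a log2 fold change above 0. Its groups all but touched in CPM, with KO 2 and WT 3 both at 36.8, and overlapped in TPM. Gm4951, F830016B08Rik, 9930111J21Rik1 and Irgc1 did not pass the filter and had at most 33 counts in a library.

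Genes next to the members on the chromosome were compared as well. Within 250000 bases of a member, 27 protein-coding genes outside the family were in the table and 19 were tested; 0 passed with edgeR and 0 with DESeq2. Their median log2 fold change was −0.14, within a range from −2.13 to 0.69. The 6 with the most counts were the ribosomal scaffold protein Rack1 (−0.87, SE 0.512), the RNA-binding protein Larp1 (−0.25, SE 0.194), the glycosyltransferase Mgat1 (0.30, SE 0.180), the ubiquitin ligase Trim41 (−0.01, SE 0.144), the dynactin subunit Dctn4 (−0.13, SE 0.125) and Sh3bp5l (−0.33, SE 0.233). In 2 of the 19 the knockout libraries were all below the wild type, where 5.51% of all genes were: Dctn4, at 53.2 to 55.1 against 57.4 to 62.1 CPM, and Lypd8, at 0.247 to 0.796 against 1.56 to 3.91 CPM (−2.13, SE 0.643). Trim7, 9759 bases from Irgm1 and singled out after its values were seen, was at 12.4, 14.1 and 11.3 CPM in the knockout and at 39.8, 42.8 and 12.7 CPM in the wild type (−1.33, SE 0.478), so that WT 3 lay with the knockout libraries. Trim41, 44615 bases from Irgm1, was at 62.1 to 69.0 CPM in the knockout and 62.0 to 73.7 CPM in the wild type.

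In the signalling pathway that induces IRG genes, the interferon ligands were not analysed here. Of 9 receptor and receptor-kinase genes, 0 passed edgeR's test or DESeq2's, and their median log2 fold change was −0.51. The interferon gamma receptor chain Ifngr1 was at 56.4, 51.7 and 38.3 CPM in KO 1 to 3 and at 109, 99.5 and 50.4 CPM in WT 1 to 3 (−0.82, SE 0.340). It was highest in WT 1 and WT 2, as the epithelial markers were. The second chain Ifngr2 (−0.62, SE 0.256) and the kinases Jak1 (−0.57, SE 0.331), Jak2 (−0.50, SE 0.249) and Tyk2 (−0.51, SE 0.265) also had overlapping groups, and the type I receptor chain Ifnar1 was at 0.16 (SE 0.181).

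Of 7 transcription factors of the pathway, 0 passed edgeR's test. At an unadjusted p under 0.05 edgeR had 4, all lower, against 3.66% of all genes. DESeq2 called Irf7 and Irf9, among others, lower, against 0.4% of all genes. The list had a median log2 fold change of −0.92. Irf9, a DNA-binding subunit of the factor that type I interferon activates, had a log2 fold change of −1.58 (SE 0.269). That of Irf7, a regulator of type I interferon genes, was −1.58 (SE 0.233), and that of Stat2, a partner of Irf9, was −0.82 (SE 0.276). Irf1, an interferon-induced transcription factor that binds ISRE sites, was at 143, 95.2 and 40.4 CPM in KO 1 to 3 and at 200, 235 and 94.5 CPM in WT 1 to 3 (−0.92, SE 0.563). Like Ifi47 it was highest in KO 1 and lowest in KO 3 within the knockout, and its groups overlapped.

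Of 4 feedback genes, 0 passed edgeR's test, and DESeq2 called the ISG15 protease Usp18 lower (−1.86, SE 0.307), as it did 0.4% of all genes. Socs3, an inhibitor of receptor signalling through Stat3, was at 12.3, 8.24 and 15.5 CPM in the knockout and 1.48, 2.91 and 6.17 CPM in the wild type (1.77, SE 0.603), and Socs1, the inhibitor of interferon gamma signalling, at 1.19 to 2.65 and 2.74 to 3.62 CPM (−0.80, SE 0.439). In CPM the groups of both were without overlap, on opposite sides, while in TPM those of Socs1 overlapped.

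The conjugation machinery and adaptors that work with IRG proteins at vacuoles lay on both sides. Of 16 such genes 0 passed edgeR's test. At an unadjusted p under 0.05 edgeR had 1, Trim21, lower, against 3.66% of all genes. The log2 fold changes of the 16 ran from −1.23 to 1.27 with a median of −0.06. In CPM the groups did not overlap in 4 of them, and in either direction in 1531 of all 14983 genes tested. Trim21 was lower, and Gabarapl1, Map1lc3a (0.36, SE 0.195) and Atg9a (0.33, SE 0.186) were higher in the knockout. In TPM the groups of Gabarapl1, Map1lc3a and Atg9a overlapped. For Atg9a the lowest knockout library was at 58.1 CPM and the highest wild-type library at 57.7 CPM. The ubiquitin-like proteins Map1lc3b (−0.01, SE 0.175), Gabarap (−0.22, SE 0.231) and Gabarapl2 (0.08, SE 0.161), the autophagy regulator Becn1 (−0.16, SE 0.145) and the adaptor Sqstm1 (0.47, SE 0.290) all had overlapping groups. Gabarapl1 was at 195 to 235 CPM in the knockout and at 184 CPM in WT 3, but at 32.6 CPM in WT 1 and 42.8 CPM in WT 2, where photoreceptor markers were also low (1.27, SE 0.705). DESeq2 called 1 of the 16 lower, against 0.4% of all genes. That was the antibody receptor and ubiquitin ligase Trim21, at 9.68 to 10.5 CPM in the knockout against 19.0 to 29.3 CPM in the wild type (−1.23, SE 0.230). Trim21, Map1lc3a and Atg9a were singled out after their values were seen.

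The guanylate-binding proteins, the other large GTPases that act at vacuoles, were on the same side as the IRG genes. Of 9 tested, 0 passed edgeR's test, and DESeq2 called 5 lower, against 0.4% of all genes. In 7 the knockout libraries were all below the wild type in CPM, against 5.51% of all genes. These shares were not compared by a test. The log2 fold changes had a median of −1.54.

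The genes whose pattern over the 6 libraries was most like the mean of the 7 members were, in this order, Ifi44, Isg15, Rtp4, Gbp3, Gbp5 and Usp18, all of them interferon-induced genes. Likeness was the root mean square distance between log2 CPM profiles, each centred on its own mean. It was taken over 14222 tested genes with a mean of at least 1 CPM, with predicted gene models (Gm and Rik symbols) left out. Since the members were chosen as low in these knockout libraries, the genes nearest to their mean are low there too by construction. The distances were 0.10, 0.17, 0.19, 0.26, 0.27 and 0.28. Ifi44, an interferon-induced protein of uncertain function, was at 1.99, 3.58 and 5.05 CPM in KO 1 to 3 and at 11.5, 21 and 15.0 CPM in WT 1 to 3. Among the members themselves, Irgm2 (0.13) and Igtp (0.18) lay nearest to the family mean. Ifi47 lay farthest, at 0.92, with 516 non-member genes nearer to that mean. Each member is part of the mean it was set against. From the mean of the other members Ifi47 lay at 1.07.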

How the data were processed

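RNA was sequenced from 6 cornea samples, 3 per genotype, grouped by the genotype in the labels. The authors deposited 1 table of 18227 genes, whose expected counts are estimated reads per gene without normalization, per the file headers. The deposited TPM and FPKM values are per length, and the deposited signal columns are counts divided by a factor per library; FPKM, that signal and 8 average columns entered no result. The submitters' processing notes name GRCm38 (mm10); for aligner, counter, annotation and strand the sources used here give nothing. Samples are not stated to come from separate mice, so p-values measure the spread between these samples.

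Expected counts were rounded and fitted over the whole table in R 4.3.3 with edgeR 4.0.16: filterByExpr (14983 genes kept), TMM scaling, genotype as the only term, quasi-likelihood test, robust dispersion, Benjamini-Hochberg adjustment, threshold 0.05. Each SE is the log2 fold change over the root of its F statistic. DESeq2 1.42.0 and limma 3.58.1 were alternatives. Log2 CPM used a prior count of 2. Totals put 3 counts at 0.185 to 0.233 CPM. Coordinates are from GENCODE M21 (GRCm38, 1-based), matched by gene identifier for 18181 genes. The fit was tested on simulated counts, where recovery of known changes was required only at a spread below that of these data. The common coefficient of variation of these data was 0.585. Members, lists and tests were chosen with earlier results of these data known. Named genes were all members, the 6 genes with the most counts of each list, every family relative, neighbours within 250000 bases with the most counts or without overlap, and the 6 genes most alike; not all are printed, and some results are not reported here.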

Additional observations from a re-analysis of the deposited data

How the results depend on the processing

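All 110 alternative values of the members' log2 fold changes were below 0 and within 1 SD of the main values, as were the 16 of their median, which ran from −2.36 (without KO 3) to −1.66 (limma on log2(TPM + 1), which understates changes of low genes). With library size alone the median was −1.78, and that scaling puts the median of all genes at 0.19. The number of members without overlap was 5 in TPM and 6 or 7 otherwise; it was 7 against WT 3 alone, a setting chosen after seeing the data in which 12.7% of all genes tested were lower. The difference in the regulators' share (knockout minus wild type) was 1.57 percentage points. It ran from −4.74 to 5.90 when 1 library was left out. Without Tgtp1 and Tgtp2 it was −4.40, and in CPM it was 5.61. It was not computed without Ifi47.

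The number of genes called was 69 with DESeq2 (60 lower), and from 0 to 5166 when 1 library was left out: it was 5166 without WT 3 and 0 in the other 5 fits. The cause was not tested. With the replicate block the count was 0, and the median of the members −2. The block put 2529 genes at an unadjusted edgeR p under 0.05, against 656 in the main fit. Deviations of same-numbered libraries correlated at 0.0905, 0.363 and 0.190, and those of differently numbered ones at −0.288 to 0.18. The numbers were not taken as pairs because the labels do not say that they pair mice. Whether they do was not tested. Replicates are few, 3 per group, and the lowest member count, 21.1 reads of Tgtp2 in KO 1, limits that gene most.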

Other observations

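Predicted gene models were left out of the search for genes like Ifi47. Among the other tested genes with a mean of at least 1 CPM, its pattern was nearest to that of Cd274. The root mean square distance over the 6 libraries was 0.12 in centred log2 CPM. Cd274 encodes the immune checkpoint ligand PD-L1. Ifi47 was compared alone after its values had been seen. Cd274 was at 56.8, 36.4 and 17.1 CPM in KO 1 to 3 and at 49, 118 and 63.7 CPM in WT 1 to 3. It too was at its knockout maximum in KO 1, where it lay above WT 1. Il1r2, Trim25, Frk and Smox were also among the nearest, at distances of 0.23, 0.31, 0.32 and 0.32. Trim25, an interferon-induced ubiquitin ligase that activates the RNA sensor RIG-I, was at 133, 102 and 46.0 CPM in the knockout and at 169, 240 and 116 CPM in the wild type. The family relatives 9930111J21Rik2 and Gm5431 lay at 0.24 and 0.27, and Irf1 at 0.47. The 6 other members lay between 0.84 (Irgm1) and 1.49 (Tgtp2), and Krt12 at 1.06. None of these differences passed edgeR's test with adjustment over all genes.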
